A study of Mus musculus with 12 samples.

Results

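The 8 keratin genes described here, Krt5, Krt8, Krt12, Krt13, Krt14, Krt15, Krt18 and Krt19, are the keratins of the corneal and conjunctival surface and of simple epithelium, and they are 8 of the 25655 genes in the table. They were chosen by their gene symbols with their counts and their CPM (counts scaled to a common library total) in these libraries already known, so their own levels and differences are a description. Where a fit over all genes is quoted for them, its log2 fold changes, standard errors and calls are given as a description too. The same holds for how many alternative runs kept a call. The share of all genes called stands beside these values, and no conclusion about the members is drawn from the fit. The 5 keratins of layered surface epithelium (Krt5, Krt12, Krt13, Krt14 and Krt15, here the surface keratins) are kept apart from the 3 keratins of simple epithelium (Krt8, Krt18 and Krt19, here the simple keratins).

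The study asked which genes change in the whole retina of C57BL/6J mice (C57BL/6 in the sample labels), 2 days after optic nerve crush (ONC) of the left eye. The mice were 8 weeks old by the treatment protocol and 8 to 10 weeks old by the sample labels. Every mouse, the controls included, had the crush and 1 intravitreal injection of PBS, of fluvastatin (a statin, an inhibitor of HMG-CoA reductase), of matrix-bound nanovesicles (MBV, lipid vesicles taken from the extracellular matrix of pig urinary bladder) or of MBV and fluvastatin together. Each group had 3 samples, and 9 libraries with named counts (PBS, fluvastatin and MBV) are used, without the combined treatment, which is not analysed here.

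The 9 libraries held 21349516 to 30992040 counts each, so that 1 CPM stood for about 21.3 to 31.0 counts. The tissue label was checked on retinal genes. Sag, the arrestin of photoreceptors, had 40078 to 91209 counts a library. The library numbers in the labels form 2 sets, with PBS in 1 set and both single treatments in the other, so each single treatment and its set cannot be told apart when set against PBS. The fluvastatin and MBV libraries lie in 1 set. The labels do not say whether 1 retina or several made a sample, so the spread between samples may hold technical as well as biological differences. In whole tissue, fewer cells of a type and less RNA per cell cannot be told apart.

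Keratins are the intermediate filament proteins of epithelial cells. A type I keratin (Krt12 to Krt15, Krt18 and Krt19 here) assembles with a type II keratin (Krt5 and Krt8 here), and the pair made depends on the epithelium. Krt5 and Krt14 are the pair of basal cells in layered epithelium, Krt15 is a further type I keratin of basal cells, Krt12 is the keratin of corneal epithelium, and Krt13 belongs to moist layered epithelium such as conjunctiva. Krt8 and Krt18 are the pair of simple, single-layered epithelium, and Krt19 is a type I keratin of many simple epithelia. The retina's own filaments are mainly vimentin, GFAP, the neurofilaments and internexin.

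In the mouse genome (GRCm39) the members lie in 2 clusters. Krt12 (ENSMUSG00000020912) spans chr11:99306492-99313085, Krt13 (ENSMUSG00000044041) chr11:100008153-100012392, Krt15 (ENSMUSG00000054146) chr11:100022584-100026754, Krt19 (ENSMUSG00000020911) chr11:100031636-100039491 and Krt14 (ENSMUSG00000045545) chr11:100093988-100098374, all on the minus strand. The type II genes Krt5 (ENSMUSG00000061527, chr15:101615505-101621333) and Krt8 (ENSMUSG00000049382, chr15:101905133-101912917) lie on the minus strand of the other cluster. Krt18 (ENSMUSG00000023043, chr15:101936615-101940462, plus strand) is a type I gene that lies beside Krt8. Krt12, Krt5, Krt8 and Krt19 each overlap a non-coding gene on the opposite strand. Whether the counting used strand is not given in the sources used here, so reads of such a partner could be among their counts.

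Promoter sequences are shown because most of the surface keratins varied together between libraries, while Krt18, which had most of the members' counts, did not vary with them. They come from RefSeq (GRCm38.p6) and cover the 250 bases before the start given in each entry, written 5′ to 3′ on the gene's strand. Of the 8 members 6 matched an entry, with 7 entries in all, and Krt15 and Krt19 matched none. Each was searched on both strands for TATAAA and ATAAAA, spellings of the TATA box, a short element near the start of many tissue-specific genes. The 2 spellings overlap where a TATAAA is followed by an A. Capitals mark a match.
Krt12 promoter, chr11:99422260-99422509, minus strand: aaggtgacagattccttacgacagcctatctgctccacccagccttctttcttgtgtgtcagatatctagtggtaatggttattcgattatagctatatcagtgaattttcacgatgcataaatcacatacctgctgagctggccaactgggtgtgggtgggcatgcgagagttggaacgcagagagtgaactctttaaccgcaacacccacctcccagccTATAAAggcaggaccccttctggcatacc
Krt5 promoter, chr15:101712906-101713155, minus strand: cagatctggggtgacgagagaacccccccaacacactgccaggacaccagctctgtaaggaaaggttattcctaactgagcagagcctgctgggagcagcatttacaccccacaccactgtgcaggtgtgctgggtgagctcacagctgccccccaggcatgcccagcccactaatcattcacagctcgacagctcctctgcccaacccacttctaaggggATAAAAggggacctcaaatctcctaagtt
Krt13 promoter, chr11:100121567-100121816, minus strand: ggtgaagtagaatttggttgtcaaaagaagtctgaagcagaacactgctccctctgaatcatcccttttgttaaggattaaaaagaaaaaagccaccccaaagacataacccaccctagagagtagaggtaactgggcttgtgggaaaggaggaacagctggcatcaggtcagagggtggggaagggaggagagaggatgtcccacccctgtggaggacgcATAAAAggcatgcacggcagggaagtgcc
Krt18 promoter, chr15:102027966-102028215, plus strand: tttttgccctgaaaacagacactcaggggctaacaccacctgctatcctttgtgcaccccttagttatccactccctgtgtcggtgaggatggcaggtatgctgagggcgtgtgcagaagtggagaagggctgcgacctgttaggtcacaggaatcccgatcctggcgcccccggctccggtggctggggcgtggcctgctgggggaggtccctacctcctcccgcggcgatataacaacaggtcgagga

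A match was found in 3 members, Krt12 (TATAAA), Krt5 (ATAAAA) and the first entry of Krt13 (ATAAAA). In each of these 3 it began 29 bases before the start, on the gene's own strand. Among 32851 mouse promoters of the same length, 12.4% held TATAAA, 17% held ATAAAA and 22.8% held either. No match was found in the entries of Krt8, Krt14 and Krt18 or in the second entry of Krt13, which says only that these letters are not in those windows. By the shift between the builds at Krt12 and the first Krt13 entry, the Krt14 entry and the second Krt13 entry start inside their genes. The bases before the annotated start of Krt14 were therefore not searched.

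The 5 surface keratins were low in the retina, and their sum was lowest with MBV. Summed counts were 67, 168 and 80 in PBS libraries 1 to 3, 17, 34 and 93 in the fluvastatin libraries and 37, 14 and 31 in the MBV libraries. On the CPM scale the sums were 2.18, 5.73 and 3.04 with PBS, 0.700, 1.27 and 3.94 with fluvastatin and 1.35, 0.639 and 1.33 with MBV. All 3 MBV libraries lay below all 3 PBS libraries, whereas the fluvastatin libraries spread from below the lowest to above the middle PBS library. Counting error does not cover this spread: the 95% Poisson intervals were 0.408 to 1.12 CPM in fluvastatin library 1 and 3.18 to 4.83 CPM in fluvastatin library 3.

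**Figure D1:**
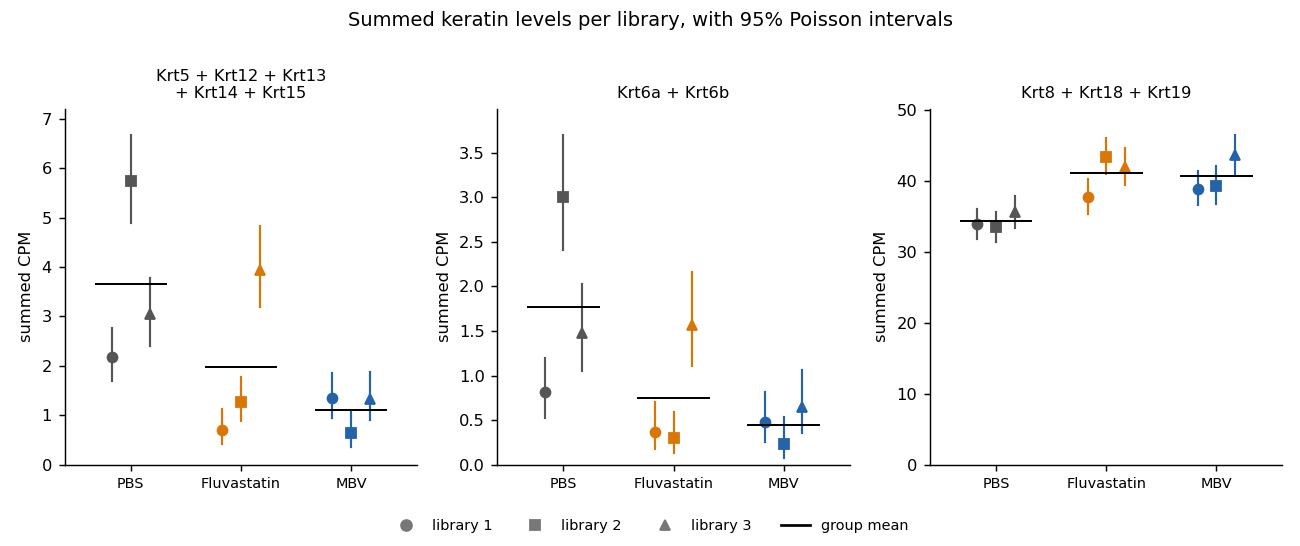
Summed level in CPM (vertical axes, from 0) of the surface keratins, of Krt6a and Krt6b, and of the simple keratins in each library (points, by group), with 95% Poisson intervals that cover counting error only (vertical bars) and group means (horizontal lines). The surface sum ran from 0.639 to 5.73 CPM and the Krt6a and Krt6b sum from 0.228 to 3.00 CPM with like orders of libraries, while the simple sum kept between 33.5 and 43.7 CPM.

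The group means of the surface sum were 3.65 ± 1.85 CPM (SD, n = 3) with PBS, 1.97 ± 1.73 CPM with fluvastatin and 1.11 ± 0.404 CPM with MBV. As log2 ratios of the means, MBV stood at -1.72 against PBS, fluvastatin at -0.89 against PBS and MBV at -0.83 against fluvastatin. PBS library 2 and fluvastatin library 3 decided much of these values. Without PBS library 2 the ratio of fluvastatin to PBS was -0.40 and that of MBV to PBS -1.24. Without fluvastatin library 3 the ratio of fluvastatin to PBS was -1.89, and that of MBV to fluvastatin changed direction to 0.17. The order of the fluvastatin and MBV means therefore rested on 1 library.

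Krt12, the corneal keratin, made up 48.1% of the 541 surface keratin counts. The PBS libraries held 28, 79 and 42 counts of it, the fluvastatin libraries 3, 11 and 52, and the MBV libraries 21, 6 and 18. Group means were 1.73 ± 0.900, 0.913 ± 1.13 and 0.604 ± 0.286 CPM (SD, n = 3). The MBV libraries lay below the PBS libraries without overlap, and the fluvastatin libraries overlapped both other groups. The share of Krt12 in the surface sum was 41.8% to 52.5% in the PBS libraries and 42.9% to 58.1% with MBV. It was lowest in fluvastatin library 1 (17.6%, exact binomial 95% interval 3.8% to 43.4%, from 17 counts).

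Krt5, the type II keratin of basal cells, had 12, 44 and 23 counts with PBS, 4, 14 and 29 with fluvastatin, and 10, 4 and 4 with MBV. The group means were 0.922 ± 0.557, 0.639 ± 0.542 and 0.240 ± 0.109 CPM. Again every MBV library lay below every PBS library, and the fluvastatin libraries overlapped the PBS range. Of the 75-base words in Krt5 transcripts, 5.06% also occur in another keratin, mostly Krt6a, so a small part of its reads could be counted for either gene.

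Krt15, a basal cell keratin, had 11, 25 and 7 counts with PBS, 2, 2 and 6 with fluvastatin, and 1, 1 and 4 with MBV. It was the surface keratin whose PBS libraries overlapped neither treatment, with means of 0.492 ± 0.316 CPM against 0.137 ± 0.102 CPM with fluvastatin and 0.0844 ± 0.0752 CPM with MBV. Krt13, of moist layered epithelium, had 12, 13 and 5 counts with PBS, 2, 4 and 6 with fluvastatin, and 2, 0 and 4 with MBV. The 0 in MBV library 2 allows up to 3 counts, or 0.141 CPM of the library total, for counting error alone. Most of these values lay at a handful of reads, where a difference of a few reads moves a fold change widely.

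Krt14, the usual type I partner of Krt5, did not follow the other surface keratins. It had 4, 7 and 3 counts with PBS, 6, 3 and 0 with fluvastatin, and 3, 3 and 1 with MBV, and all 3 groups overlapped. Its mean was 0.161 ± 0.0679 CPM with PBS, 0.120 ± 0.124 CPM with fluvastatin and 0.0965 ± 0.0485 CPM with MBV, the same order of groups as in Krt5. Summed over the 9 libraries, Krt5 had 144 counts and Krt14 30. In fluvastatin library 3, where Krt5 and Krt12 were highest of that group, Krt14 was at 0. As a description over 9 libraries that share their depth and group differences, Krt12 and Krt5 had a Pearson r of 0.90 (Spearman correlation 0.83) on the log2 CPM scale, and Krt12 and Krt14 an r of -0.26 (Spearman -0.28).

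**Figure D2:**
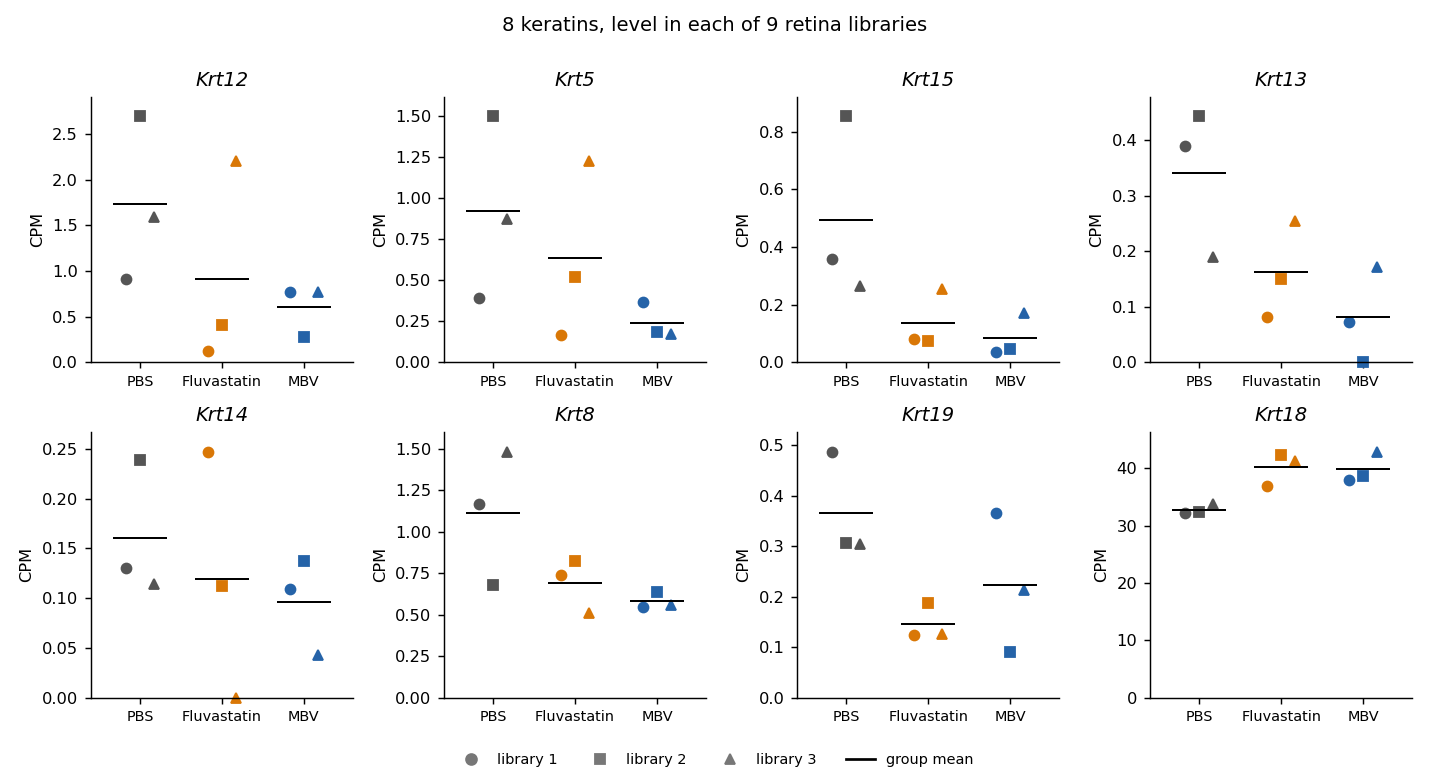
Level in CPM (vertical axes, from 0, each panel with its own scale) of each of the 8 keratins in the 3 libraries of each group, with group means as horizontal lines. Krt12, Krt5, Krt15 and Krt13 are highest in PBS library 2, Krt14 in fluvastatin library 1, and Krt18 is higher in all 6 treated libraries than in the 3 PBS libraries.

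Differences were also fitted for all genes with edgeR's quasi-likelihood test, 2 groups at a time, with p-values adjusted by Benjamini-Hochberg and a gene called at an adjusted p under 0.05. With MBV against PBS, 26.1% of 18897 genes were called (12% higher and 14.1% lower), and 20.3% were higher and 21% lower without overlap of the groups. Beside that background, 3 surface keratins were called lower and 4 were lower without overlap. The fitted log2 fold changes were -1.90 (SE 0.57) for Krt5, -1.50 (SE 0.47) for Krt12, -2.52 (SE 0.73) for Krt15, -2.01 (SE 0.75) for Krt13 and -0.73 (SE 0.67) for Krt14, and the called genes were Krt5, Krt12 and Krt15. None of these 3 calls held in every alternative: Krt5 was called in 5 of 12, Krt12 in 6 of 12 and Krt15 in 6 of 11, with the direction kept in each. Krt13, not called in the fit reported, was called in 1 of 11.

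With fluvastatin against PBS, 19.6% of 18818 genes were called (9.36% higher and 10.2% lower), and 17.3% were higher and 19.3% lower without overlap. No surface keratin was called, 1 (Krt15) was lower without overlap, and 1 had an unadjusted p under 0.05. The fitted values were -0.53 (SE 0.61) for Krt5, -0.95 (SE 0.70) for Krt12, -1.08 (SE 0.56) for Krt13, -0.41 (SE 0.82) for Krt14 and -1.85 (SE 0.65) for Krt15. The direction of 2 of these values rested on 1 library: Krt5 stood at 0.027 without PBS library 2, and Krt14 at 0.13 without fluvastatin library 3. Krt12, Krt13 and Krt15 stayed below 0 in each alternative run. Krt12 was at -2.65 without fluvastatin library 3, the 1 of its 12 alternatives in which it was called. These comparisons share the PBS libraries, so PBS library 2 enters both.

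With MBV against fluvastatin, which lie in 1 set of library numbers, 0.0588% of 18721 genes were called (0.0267% higher and 0.032% lower), and 8.53% were higher and 7.88% lower without overlap. No keratin of the 8 was called or free of overlap, by edgeR or by DESeq2, and none had an unadjusted p under 0.05. Krt5 stood at -1.36 (SE 0.68) and Krt12 at -0.56 (SE 0.81). Without fluvastatin library 3, Krt12 stood at 1.14 and Krt15 at 0.07, so the direction of both in this comparison rested on that library, and those of Krt14 and Krt18 also changed when 1 library was left out.

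**Figure D3:**
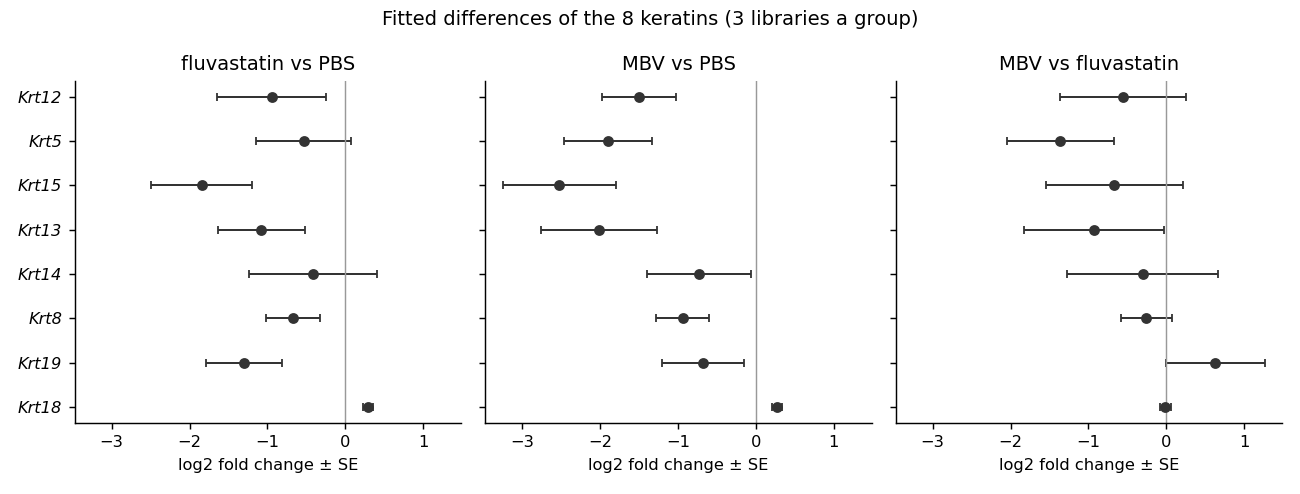
Fitted log2 fold changes (horizontal axes) with standard errors (bars) for the 8 keratins in the 3 comparisons, 3 libraries a group. Against PBS, 7 of the 8 lie below 0 in both comparisons and Krt18 lies at 0.29 and 0.27, and the bars of the low-count genes are several times wider than that of Krt18.

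The simple keratins were dominated by Krt18, which alone of the 8 was higher against PBS, while Krt8 and Krt19 stood below PBS as the surface keratins did. The PBS libraries held 991, 952 and 889 counts of Krt18, the fluvastatin libraries 896, 1134 and 974, and the MBV libraries 1040, 845 and 1003. Its means were 32.8 ± 0.840, 40.2 ± 2.90 and 39.8 ± 2.67 CPM (SD, n = 3). Every treated library was above every PBS library, and the fluvastatin and MBV libraries overlapped. The fitted log2 fold change was 0.29 (SE 0.063) with fluvastatin and 0.27 (SE 0.060) with MBV, and -0.01 between the treatments. Krt18 was called higher against PBS with either treatment, beside 9.36% and 12% of all genes, and each call was lost only without PBS library 1 of the 12 alternatives run.

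Krt8, the usual type II partner of Krt18, had 36, 20 and 39 counts with PBS, 18, 22 and 12 with fluvastatin, and 15, 14 and 13 with MBV. The group means were 1.11 ± 0.403, 0.691 ± 0.163 and 0.581 ± 0.0506 CPM, so Krt8 was highest with PBS, where Krt18 was lowest. Of the 2 treatments only MBV was free of overlap with PBS in Krt8. Krt8 was not called in any comparison in the fit reported, and with MBV against PBS it was called in 1 of 12 alternatives. Krt19 had 15, 9 and 8 counts with PBS, 3, 5 and 3 with fluvastatin, and 10, 2 and 5 with MBV. The fluvastatin libraries lay below the PBS libraries in Krt19, while MBV library 1 lay within them. Its fitted values of -1.30 (SE 0.49) with fluvastatin and -0.67 (SE 0.53) with MBV were not called.

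Set against each other per length of exon, Krt18 stood far above Krt8 in every library. The ratio of Krt18 to Krt8, counts per exon base, was 31.1 to 64.9 in the PBS libraries, 67.8 to 110.6 with fluvastatin and 82.2 to 105.1 with MBV. It was higher in the 6 treated libraries than in the 3 PBS libraries. The 2 genes are partners in simple epithelium, yet their levels here were unequal by more than 30 times in each library.

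Ranked per length among 34 keratins and other intermediate filament genes, Krt18 was the fourth at a mean of 26.2 CPM per kb. Above it stood Nefl (100.8 CPM per kb), the light neurofilament, Vim (42.0 CPM per kb), vimentin, and Ina (29.5 CPM per kb), internexin of neurons. Krt12 was the next of the members at 0.585 CPM per kb, then Krt8 (0.406), Krt5 (0.272), Krt15 (0.133), Krt19 (0.132), Krt13 (0.107) and Krt14 (0.067). The ranges of neighbouring members over the 9 libraries overlapped from Krt12 down to Krt14, so of the steps between neighbours only that from Krt18 to Krt12 exceeded the spread.

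**Figure D4:**
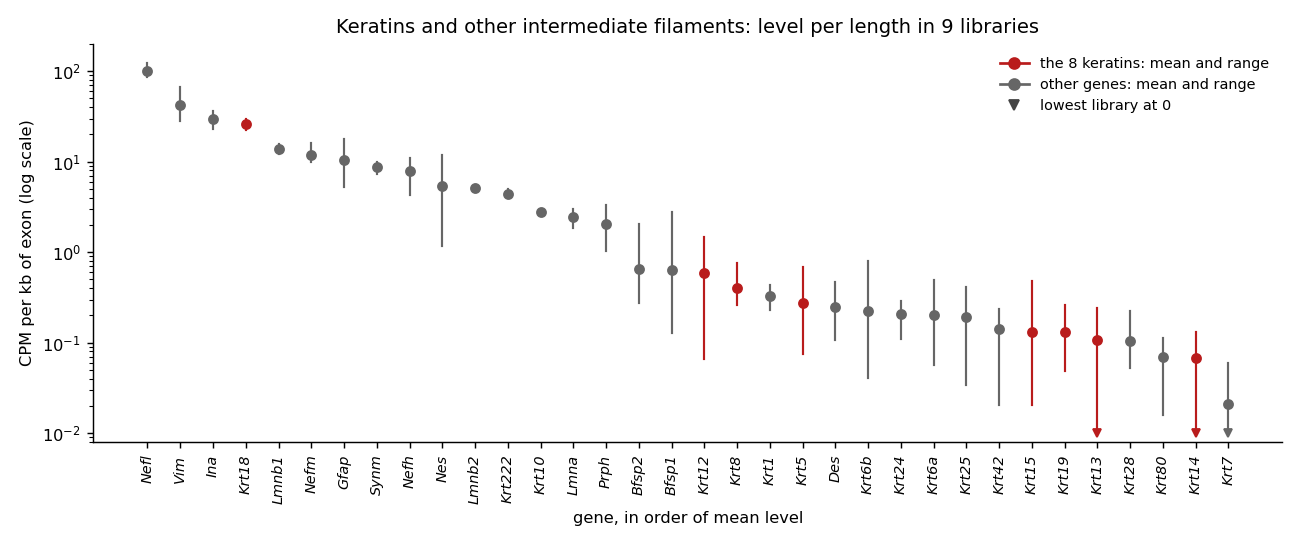
Mean level in CPM per kb of exon (vertical axis, log scale) of 34 keratins and other intermediate filaments in order of their means, with the lowest and highest of 9 libraries (lines), the 8 keratins in red and triangles at the lower edge for genes with a library at 0. Krt18 lies at 26.2 CPM per kb among the filaments of neurons and glia, and the other 7 members lie below 1 CPM per kb.

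Of the 45 other keratins in the table, 31 had a count in some library, 14 were at 0 throughout, and 11 reached 10 counts in a library. With MBV against PBS, 3 of 31 tested (9.68%) were called lower, beside 14.1% of all genes, and none higher, and the list's median log2 fold change was 0.02 beside 0.01 for all genes. The 3 were Krt6a (-1.74, SE 0.49, adjusted p = 0.0304), Krt6b (-2.17, SE 0.69, adjusted p = 0.0458) and Krt7 (-2.33, SE 0.74, adjusted p = 0.0469). Krt6a and Krt6b are type II keratins of layered epithelium that are induced in wounded skin. With fluvastatin none of 29 was called, and 1 had an unadjusted p under 0.05.

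Krt6a had 13, 35 and 23 counts with PBS, 6, 4 and 19 with fluvastatin, and 8, 3 and 7 with MBV. Krt6b had 12, 53 and 16 with PBS, 3, 4 and 18 with fluvastatin, and 5, 2 and 8 with MBV. Both were highest in PBS library 2 and, among the fluvastatin libraries, in library 3, as Krt12 and Krt5 were. Of the 75-base words in Krt6a transcripts 36.6% also occur in another keratin, mostly Krt6b, so the split of counts between them is uncertain. Each of the 3 calls was lost without PBS library 2, where Krt6b stood at -1.25. Over all alternatives Krt6a was called in 6 of 12, Krt6b in 5 of 12 and Krt7 in 4 of 10, with the direction kept in each.

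Krt10, a type I keratin of suprabasal skin, had 133 to 179 counts in each library, at 5.74 ± 0.32 CPM with PBS, 6.07 ± 0.048 CPM with fluvastatin and 5.85 ± 0.272 CPM with MBV. Krt1, its type II partner, had 22 to 51 counts, at 1.58 ± 0.313 CPM with PBS, 1.56 ± 0.262 CPM with fluvastatin and 1.19 ± 0.238 CPM with MBV. Neither was called in any comparison.

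Further genes of surface epithelium were counted from a list of 21 genes of corneal epithelium that holds no keratin. With MBV against PBS, 4 of 21 tested (19%) were called lower, beside 14.1% of all genes, and none higher, and the list's median log2 fold change was -0.25, beside 0.01 for all genes. With fluvastatin 2 of 20 (10%) were called lower, beside 10.2% of all genes, and none higher, with a median of -0.54 beside -0.01 for all genes. Of the genes tested, 7 of 21 stood above 0 with MBV and 5 of 20 with fluvastatin. Over the 12 list genes with a mean of at least 10 counts, the median was smaller, at -0.15 with MBV and -0.17 with fluvastatin. Between MBV and fluvastatin none of the list's genes was called and 1 had an unadjusted p under 0.05, with a median of -0.03.

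Aldh3a1, an aldehyde dehydrogenase that is one of the most abundant proteins of mouse corneal epithelium, had 20, 42 and 27 counts with PBS, 5, 14 and 35 with fluvastatin, and 8, 0 and 5 with MBV. The MBV libraries lay below the PBS libraries (log2 fold change -2.53, SE 0.63, adjusted p = 0.0175). The call held in 10 of 12 alternatives, not with the replicate block and not without PBS library 2. With fluvastatin its value was -0.50 (SE 0.55, adjusted p = 0.56). Psca, a surface protein of some epithelia, had 6, 17 and 9 counts with PBS, 2, 1 and 9 with fluvastatin, and 1, 3 and 2 with MBV, and was called lower with MBV (-2.11, SE 0.67, adjusted p = 0.0454) in the fit reported and in 4 of 10 alternatives.

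Ehf, a transcription factor of epithelial cells, and Perp, a desmosomal membrane protein, were called lower with either treatment. The log2 fold changes of Ehf were -0.72 (SE 0.23, adjusted p = 0.0497) with fluvastatin and -1.02 (SE 0.29, adjusted p = 0.0312) with MBV, called in 2 of 12 and 7 of 12 alternatives. Those of Perp were -0.85 (SE 0.25, adjusted p = 0.0349) and -0.90 (SE 0.28, adjusted p = 0.0422), called in 6 of 12 and 5 of 12 alternatives. Ehf had 65, 59 and 57 counts with PBS, 39, 34 and 22 with fluvastatin, and 21, 17 and 37 with MBV. Perp had 96, 81 and 75 counts with PBS, 56, 31 and 33 with fluvastatin, and 25, 36 and 51 with MBV. For both, all 6 treated libraries lay below the PBS libraries, and neither showed the high fluvastatin library 3 of Krt12 and Aldh3a1. The most abundant genes of the list were not called: Pax6, which retinal neurons also express, had 6561 to 8923 counts, and Slurp1, a secreted protein of the cornea, 65 to 150.

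**Figure D5:**
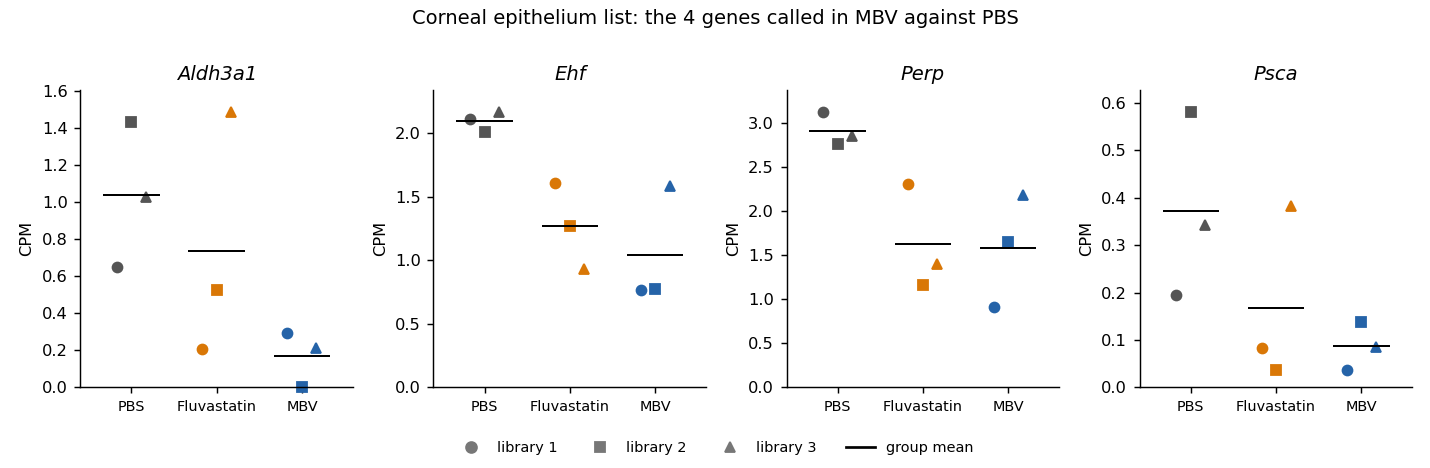
Level in CPM (vertical axes, from 0, each panel with its own scale) of the 4 genes of the corneal epithelium list called lower with MBV against PBS, in the 3 libraries of each group, with group means as lines. Aldh3a1 and Psca are high in fluvastatin library 3, and Ehf and Perp are lower in all 6 treated libraries than in the 3 PBS libraries.

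Calml3, a calmodulin-like protein of layered epithelium, and Trp63, the p63 factor of basal cells, are list members named here after their values were seen. Calml3 had 20, 29 and 15 counts with PBS, 0, 2 and 15 with fluvastatin, and 6, 1 and 13 with MBV. Trp63 had 17, 25 and 19 counts with PBS, 21, 8 and 6 with fluvastatin, and 13, 6 and 6 with MBV. Calml3 was higher in fluvastatin library 3 than in the other fluvastatin libraries, as Krt12 was, whereas Trp63, like Krt14, was highest there in library 1. Neither was called.

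The remaining epithelial lists were counted in the same way. The shares of all genes called were 9.36% higher and 10.2% lower with fluvastatin and 12% higher and 14.1% lower with MBV. Of 16 genes of conjunctiva and goblet cells, 2 were called lower with fluvastatin (12.5%). They were the mucins Muc5ac (-1.26, SE 0.32, adjusted p = 0.0197) and Muc16 (-2.16, SE 0.62, adjusted p = 0.034). Of 15 tested with MBV 1 was called lower (6.67%), the Krt7 already given. Muc5ac had 84, 107 and 142 counts with PBS, 30, 65 and 28 with fluvastatin, and 29, 24 and 214 with MBV, so MBV library 3 lay above all others. The Muc16 call, on 1 to 9 counts a library, held in 3 of 10 alternatives, and that of Muc5ac in 9 of 12. Of the list of eyelid epidermis, 1 gene was called with either treatment, and it was higher (11.1% of 9 tested with fluvastatin and 10% of 10 with MBV). It was Sbsn, suprabasin of the epidermis, at 0.56 (SE 0.15, adjusted p = 0.0259) with fluvastatin and 0.57 (SE 0.15, adjusted p = 0.0224) with MBV. These calls held in 9 of 12 and 8 of 12 alternatives.

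Of 19 genes of desmosomes, hemidesmosomes and the cell envelope, 3 were called lower with fluvastatin (15.8%) and 1 higher (5.26%), and with MBV 1 was called higher (5.26%) and none lower. The 3 lower genes were the desmosomal cadherins Dsg1a (-2.35, SE 0.72, adjusted p = 0.0455, called in 4 of 12 alternatives) and Dsc2 (-0.63, SE 0.19, adjusted p = 0.0367, called in 7 of 12) and the laminin chain Lama3 (-0.48, SE 0.14, adjusted p = 0.0342, called in 8 of 12). Dsg1a had 87, 52 and 93 counts with PBS, 35, 0 and 4 with fluvastatin, and 1, 1 and 39 with MBV, and did not share the high fluvastatin library 3 of Krt12. The gene called higher with both was Dst, dystonin, which neurons also express, at 0.38 (SE 0.061) and 0.44 (SE 0.076). Of 17 other genes of epithelial adhesion and polarity, 2 (11.8%) were called lower with fluvastatin (Cldn1 and Spint2, in 6 of 12 and 10 of 12 alternatives). With MBV 2 (11.8%) were called lower (Esrp1 and Spint2, each in 4 of 12) and 1 (5.88%) higher (Marveld3, in 10 of 12). Between MBV and fluvastatin no gene of these 4 epithelial lists was called.

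Genes of other eye tissues also differed between libraries. Their part in the keratin levels was not tested, and their values are given beside them. Optc, opticin of the ciliary body, had 707, 638 and 743 counts with PBS, 961, 45 and 25 with fluvastatin, and 22, 28 and 371 with MBV, so fluvastatin library 1, low in Krt12, was the highest in Optc and fluvastatin library 3, high in Krt12, was low. Dct, an enzyme of pigment cells, had 1299 to 1947 counts with PBS and 382 to 514 in the treated libraries, with no overlap. Of 14 lens genes 11 (78.6%) were called higher with MBV, beside 12% of all genes. The lens sum was 2.51 to 5.82 CPM with PBS, 3.22 to 18.4 CPM with fluvastatin and 44.4 to 146.8 CPM with MBV.

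By the test, 9.36% of all genes were called higher and 10.2% lower with fluvastatin, and 12% higher and 14.1% lower with MBV. Beside these shares, 3 of 15 genes of the retinal pigment epithelium were called higher (20%) and 6 lower (40%) with fluvastatin. With MBV 1 of the 15 was called higher (6.67%) and 7 lower (46.7%). Of 12 retinal neuron and Mueller glia genes 5 (41.7%) were called lower with either treatment and none higher. In both lists the share called lower lay above that of all genes. Of 15 other intermediate filament genes 4 were called higher (26.7%) and 2 lower (13.3%) with fluvastatin, and 6 higher (40%) with MBV. Ina rose with both by 0.34 (SE 0.093) and 0.30 (SE 0.064). Of 9 genes of vessels 1 was called lower with fluvastatin (11.1%) and 2 higher with MBV (22.2%).

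Beside the same shares of all genes, 2 of 11 genes of corneal stroma and endothelium were called higher (18.2%) and 3 lower (27.3%) with fluvastatin. With MBV 3 of the 11 were called higher (27.3%) and 2 lower (18.2%). The 11 genes of the ciliary body and iris gave 1 higher and 1 lower with fluvastatin (9.09% each) and 2 of each with MBV (18.2% each). Of 11 tested genes of monocytes and neutrophils 1 was called lower with fluvastatin (9.09%) and none with MBV. No gene of these lists was called between MBV and fluvastatin.

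Summed over its genes, the corneal list without Pax6 was 18.3 to 21.8 CPM in the PBS libraries, 16.2 to 17.3 CPM with fluvastatin and 15.4 to 17.0 CPM with MBV. The list of corneal stroma and endothelium summed to 135.3 to 156.3 CPM with PBS, 125.5 to 153.7 CPM with fluvastatin and 86.2 to 152.3 CPM with MBV, so its groups overlapped. The ciliary body and iris list summed to 224.9 to 230.0 CPM with PBS, 153.2 to 242.6 CPM with fluvastatin and 136.6 to 217.1 CPM with MBV. The 12 genes of monocytes and neutrophils summed to 7.27 to 11.9 CPM with PBS, 7.50 to 8.82 CPM with fluvastatin and 9.13 to 32.1 CPM with MBV, the highest in MBV library 3. In none of these 4 lists was fluvastatin library 3 the highest of its group, as it was in the surface keratins. As a description over the 9 libraries, the log2 sums of lists were correlated with that of the surface keratins. The corneal list without Pax6 stood at a Pearson r of 0.80 (Spearman correlation 0.73). With Pax6, as the list was set, it stood at -0.19 (Spearman correlation -0.33). No other list had a gene taken out, so the value of 0.80 is not ranked with theirs. The other keratins stood at 0.49, conjunctiva at 0.39, and epithelial adhesion and polarity at 0.19. The eyelid epidermis list stood at -0.61, and that of desmosomes, hemidesmosomes and the cell envelope at -0.65. The ciliary body and iris list stood at 0.25 (Spearman correlation 0.17). The libraries behind these values share depth and group differences.

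The genes most like the surface keratins were sought among 15310 genes that are no keratins, by Pearson r of log2(CPM + 0.5) over the 9 libraries. The likeness holds the group differences, and no p is given. Rbm41, an RNA-binding protein, was the closest (r = 0.97, Spearman correlation 0.98), and Aldh3a1 was the second (r = 0.95, Spearman 0.93, and r = 0.95 without PBS library 2). Rbm41 had 830 to 978 counts with PBS, 720 to 818 with fluvastatin and 645 to 837 with MBV. The others of the 10 were Tmem203, Asprv1, a protease of the epidermis, Rab27a, Nmnat3, Wdsub1, Gzmm, Enpp4 and Adck5, with r of 0.90 to 0.94. Among all candidates 0.1% had an r above 0.88. Of the 10 genes 6 were also among the 10 closest by Spearman correlation and 4 without PBS library 2.

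The simple keratin sum, which is mostly Krt18, was most like another 10 genes, sought in the same way. The closest was Tshz2, a zinc finger factor (r = 0.98, Spearman 0.98), followed by Drp2, Tnfaip8l1, Eno2, the enolase of neurons, Tbc1d10b, Apba1, Gabbr1, a GABA-B receptor subunit, Nmnat2, an NAD synthesis enzyme of axons, Basp1, a membrane protein of growth cones, and Sgsm1, with r of 0.97 to 0.98. Eno2 had 10946 to 12701 counts with PBS, 10991 to 13901 with fluvastatin and 10744 to 12705 with MBV. Many genes had a pattern of this kind: 1% of the candidates had an r above 0.92, and 3 of the 10 genes were also among the 10 closest by Spearman correlation, and 2 without MBV library 3. No gene was shared by the 2 sets of 10.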

How the data were processed

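RNA of whole retinas (TruSeq Total RNA kit, 75-base paired-end reads) was measured in 12 samples. The raw counts per gene were made and deposited by the authors with CLC Genomics Workbench, on GRCm39 per the submitters' processing notes, and 9 libraries with named columns were used. 6 count columns of the combined treatment table name neither library nor group and were not used, and the authors' fold changes, p-values and group means were not used.

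CPM were computed with TMM size factors over the 9 libraries. Pairs of groups were compared with edgeR 4.0.16 (R 4.3.3) quasi-likelihood tests on the counts of all genes with at least 1 count, with Benjamini-Hochberg adjustment and a threshold of 0.05, in the manner of the study's 2-group comparisons. The test recovered 84% to 87% of genes changed 2-fold and 94% to 99% changed 4-fold when tested on simulated data of 18721 to 18897 genes. With 100 genes changed by each fold, 23, 23 and 31 unchanged genes were also called in the 3 comparisons, a larger share of the calls than 0.05. Far more genes were called against PBS than were changed in the simulation, so its rates may not hold there. The changed genes had a mean of at least 10 counts, so these rates do not cover Krt13, Krt14, Krt15 and Krt19, with means of 3.33 to 6.67 counts. The biological coefficient of variation was 7.78%, 8.57% and 10.1%. Alternatives were DESeq2 1.42.0, other size factors, the study's filter (over 10 counts in 2 libraries of a group), 1 fit of all 9 libraries, a replicate block and leaving out each library.

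The members and lists were chosen with earlier results of these data known. Of the other keratins, those with 10 counts in a library (at most 10, by mean CPM) were eligible to be named, of each list the 4 with the highest mean CPM and the called genes where they were 4 or fewer, and the 10 genes most like each keratin sum. Trp63 and Calml3 fall outside this rule. Poisson and binomial intervals cover counting error only. Sequences and counts of promoters come from the RefSeq table of GRCm38.p6, and positions from GRCm39. The lists of vascular cells, retinal pigment epithelium and retinal neurons served as checks.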

Additional observations from a re-analysis of the deposited data

How the results depend on the processing

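The keratin sums kept their direction against PBS in each alternative run, from -1.89 to -0.40 (fluvastatin) and -1.99 to -1.20 (MBV) on the log2 scale for the surface sum, and from 0.22 to 0.32 and 0.19 to 0.28 for the simple sum. The surface sum of MBV against fluvastatin ran from -1.24 to 0.17 when 1 library was left out, with 0.17 without fluvastatin replicate 3, and was 0.06 by medians.

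Leaving out 1 library moved the genes called from 3687 to between 1726 (without PBS replicate 1) and 4402 for fluvastatin against PBS, where 2113 were called without fluvastatin replicate 2, and from 4937 to between 2711 (without PBS replicate 1) and 5664 for MBV against PBS. For MBV against fluvastatin the 11 genes called became 0 to 197 when 1 library was left out (0 without MBV replicate 1, 2 without fluvastatin replicate 2 or 3, 22 without fluvastatin replicate 1, 197 without MBV replicate 3), 5 with the study's filter, 122 with DESeq2 and 38 in 1 fit of all 9 libraries. The cause was not tested.

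The samples share only a replicate number: deviations of same-numbered samples from their group means correlated at -0.37 to 0.16. With the replicate block, 3727, 3876 and 0 genes were called by edgeR in the 3 comparisons, beside 2001 genes at an unadjusted p under 0.05 for MBV against fluvastatin without the block.

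The planned comparison of the combined treatment with PBS was not run. Over the alternatives, 115 values of called epithelial genes fell short of the threshold with their direction kept and none changed direction. Depth limits the surface keratins, since 3 counts correspond to 0.0968 to 0.141 CPM.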
